A study of Homo sapiens with 12 samples.

Results

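Translation initiation and elongation factors are the proteins that start and extend protein chains on the ribosome. The genes described here were the 61 protein-coding genes whose symbol begins with EIF or EEF and a digit, without the eIF2 kinases and the eIF4E-binding proteins, out of 58302 genes listed. They comprise 48 genes of initiation factors and 13 genes of elongation factors and of enzymes that modify them. The rule reads only gene symbols and the protein-coding annotation, not measured values.

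The series asked which mRNAs carry N4-acetylcytidine (ac4C), a modified base written by the acetyltransferase NAT10, in colorectal cancer. All 12 libraries came from DLD1, an established epithelial line from a human colorectal tumour, at passage 5. Cells carried a short hairpin against NAT10 (shNAT10) or a non-targeting hairpin (shNC). For each hairpin there were 3 input libraries of fragmented RNA and 3 libraries of the pieces that an anti-ac4C antibody pulled down, read as 150 bp pairs. The comparison below is shNAT10 input against shNC input, 3 libraries each. The antibody-bound libraries were not analysed here except through the authors' deposited table of differential peaks. The labels do not say whether replicates were separate cultures, so every p-value rests on the spread between these libraries only. In the limma test that spread is taken mostly from other genes of like level, not from the gene itself.

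Initiation begins when eIF2 carries the initiator tRNA to the small ribosomal subunit, with eIF1, eIF1A and the many-subunit eIF3 holding that subunit open. The eIF4 proteins bring the mRNA by binding its cap (eIF4E), unwinding it (eIF4A) and bridging the parts (eIF4G), and eIF5 and eIF5B complete the joining of the subunits. In elongation, eEF1A delivers each aminoacyl-tRNA, eEF1B recharges eEF1A with GTP, and eEF2 moves the ribosome along the mRNA. Many of these mRNAs in vertebrates begin with a run of pyrimidines, the TOP element, through which mTOR signalling sets their translation.

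Levels are FPKM, fragments scaled to gene length and to library size, as the authors deposited them. The libraries labelled shNAT10 were shallower, with 1152925 to 1227530 fragments on genes against 2495676 to 2637164 in shNC. NAT10 itself (ENSG00000135372) was at FPKM 0, 28.1 and 31.4 in the libraries labelled shNAT10, against 1.24, 3.95 and 2.89 in shNC. Replicates 2 and 3 labelled shNAT10 thus lay above every shNC library, which goes against their label. Its log2 difference was 1.48 with an SE of 1.86 (adjusted p = 0.754 from limma, p = 0.4 by an exact two-sided permutation test), and every direction below is that of the label. Of the 9 epithelial markers 7 were above 0 in all 6 libraries, and KRT20 was above 0 only in shNC replicate 3, at 0.158. The summed FPKM of the 9 was 6650 to 7030 in the libraries labelled shNAT10 and 4180 to 4530 in shNC. KRT8, a keratin of simple epithelia, made up most of that sum. EPCAM, a surface protein of epithelia, ran the other way without overlap, at 38.3, 80.3 and 128, against 226, 370 and 262. Leukocyte markers summed to at most 0.199 and endothelial markers to at most 0.241, both in shNAT10 replicate 3. The 6 fibroblast and muscle markers summed to 7.40 to 68.9 in the libraries labelled shNAT10 and to 0 to 3.81 in shNC, with TAGLN at 68.9, 2.04 and 1.49, against 0, 0 and 0, and ACTA2 at 0, 22.0 and 1.40, against 3.67, 0 and 0. In shNAT10 replicate 3 the largest of the 6 was DCN, a fibroblast proteoglycan, at 3.18.

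RefSeq gave an annotated transcription start (GRCh38.p14) for 49 of the 61 genes. At 11 of the 49 (22.4%) the start base was C and the next 4 bases were all C or T, the form a TOP element takes. Among all 27305 genes with such an entry the share was 4.04% (1104 genes). The first set below shows the most abundant genes with that start. Each line runs from 10 bases before the start to 20 bases from the start on, 5′ to 3′ on the gene's strand, with the pyrimidine run that opens the transcript in capitals.

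EEF2: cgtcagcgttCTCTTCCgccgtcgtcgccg
EEF1A1: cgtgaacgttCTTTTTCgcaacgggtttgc
EIF3D: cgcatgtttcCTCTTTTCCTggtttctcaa
EIF4B: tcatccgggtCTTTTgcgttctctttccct
EIF2S3: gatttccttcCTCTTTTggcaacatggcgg
EIF4A2: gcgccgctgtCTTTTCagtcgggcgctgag
EIF3K: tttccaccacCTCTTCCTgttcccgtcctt

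The windows lie at chr19:3985444-3985473 (minus strand) for EEF2, chr6:73521013-73521042 (minus) for EEF1A1, chr22:36529147-36529176 (minus) for EIF3D, and chr12:53006446-53006475 (plus) for EIF4B. They lie at chrX:24054946-24054975 (plus) for EIF2S3, chr3:186783567-186783596 (plus) for EIF4A2, and chr19:38619178-38619207 (plus) for EIF3K. For contrast, the 3 genes of the second set are also abundant and have no such run at the annotated start, so no base is in capitals.

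EIF3I: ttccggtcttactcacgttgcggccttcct
EIF5A: tgggaacccgaccacactagcgcgctagaa
EIF1: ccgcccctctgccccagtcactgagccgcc

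These windows lie at chr1:32222397-32222426, chr17:7306989-7307018 and chr17:41688875-41688904, all on the plus strand. The 11 genes with the pyrimidine start had a median of their mean FPKM of 43.8 (range 0.0118 to 837), and the 38 genes with another start one of 4.88 (range 0 to 147). The 12 genes without an entry, among them the abundant EEF1A2, EIF3L and EIF3A, are in neither set. An annotated start may differ from the start used in DLD1 cells, and a match describes the letters only.

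Of the 61 genes, 5 were listed at 0 in all 6 inputs: EEF1AKMT1, EEF1E1, EEF1E1-BLOC1S5, EEF1G and EIF4E1B. EEF1G encodes a subunit of eEF1B, which is present in most cells, so a listed 0 is not read as absence. A further 11 were above 0 but had a mean FPKM under 1 and were not tested, and 45 were tested. Above 0 in every library were 29 of the 61, and 1955 of the 19786 other protein-coding genes, not matched for level. The libraries labelled shNAT10 had 35, 39 and 42 of the genes above 0, against 44, 44 and 50 in shNC. Over all genes listed the counts also split by hairpin, at 6348, 6435 and 8117 against 8449, 8340 and 8682. The libraries labelled shNAT10 were the shallower ones, so these counts are not read as a result about the factor genes.

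**Figure D1:**
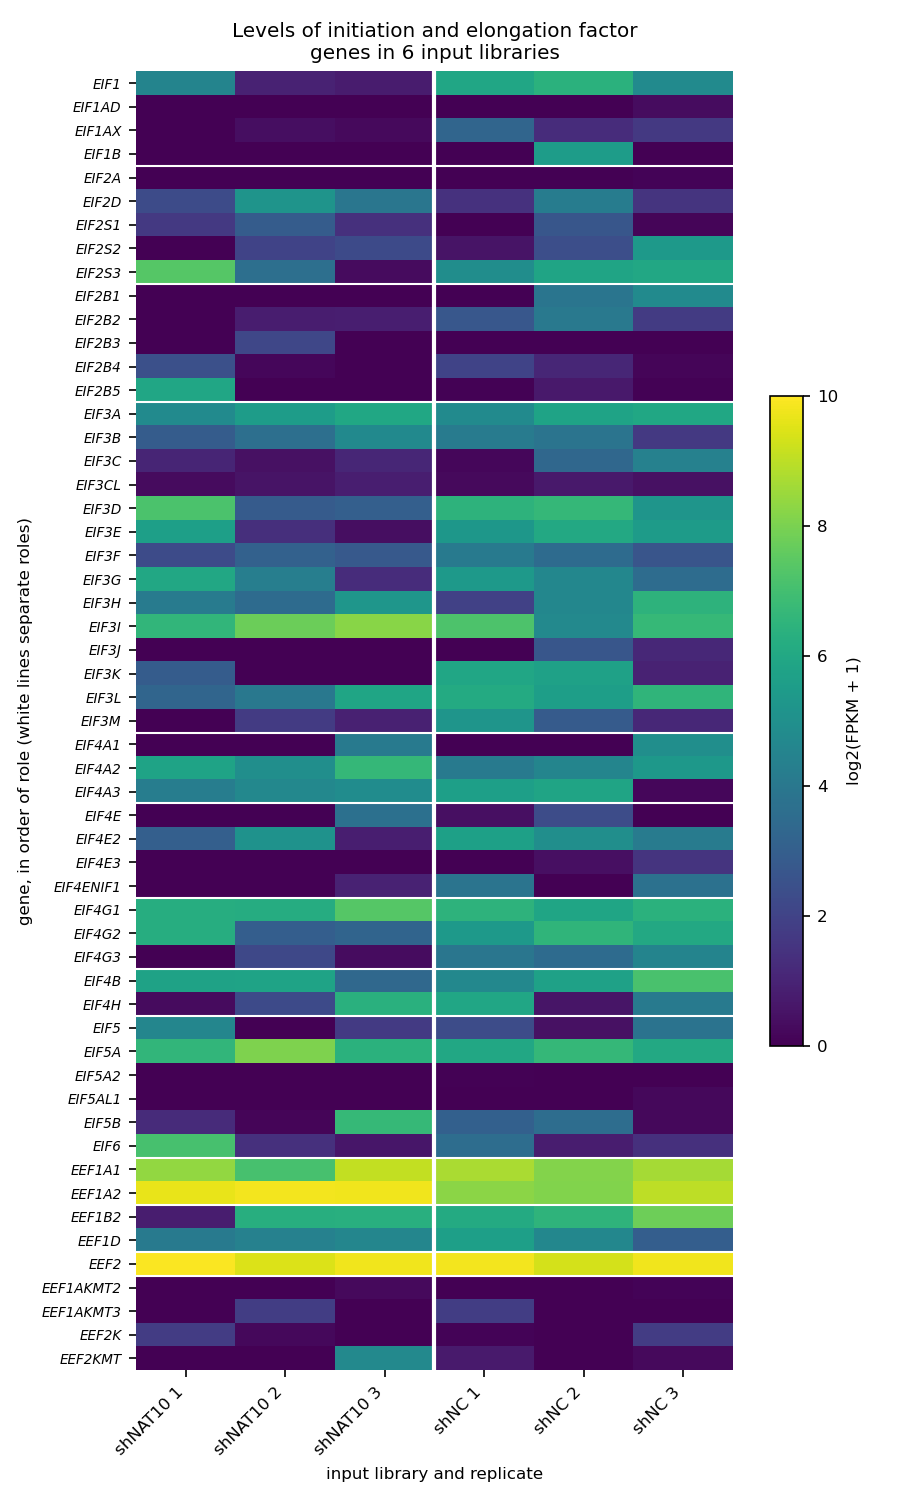
Input level, as log2(FPKM + 1), of the genes above 0 in at least 1 library (rows, in order of role) in the 6 input libraries (columns, shNAT10 replicates 1 to 3 and shNC replicates 1 to 3). EEF2 and EEF1A2 are bright in every column, and many other genes are bright in some replicates of a group and dark in others.

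The elongation factors EEF2, EEF1A2 and EEF1A1 had the highest mean FPKM of the 61 over the 6 libraries. In shNAT10 replicate 2, however, EIF5A and EIF3I stood above EEF1A1. Together EEF2, EEF1A2 and EEF1A1 made up 63.3%, 63.9% and 64.9% of the summed FPKM in the libraries labelled shNAT10, against 57.3%, 49.6% and 56.9% in shNC. That sum is over all 61 genes but the Y-linked EIF1AY. EEF2 (ENSG00000167658, chr19:3976056-3985463), the translocase, had FPKM 979, 713 and 890 in the libraries labelled shNAT10 and 895, 656 and 892 in shNC. Those groups overlapped almost wholly, with a difference of 0.08 in mean log2(FPKM + 1) (SE 0.52, 95% interval -0.94 to 1.10, limma adjusted p = 0.968). EEF2 was the most abundant of the genes in 5 of 6 libraries and had the smallest spread within groups of the 45 tested, an SD of 0.25 on the log2 scale.

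The eEF1A proteins are made from a pair of genes, EEF1A1, which is used in most tissues, and EEF1A2, which is known from muscle and neurons. EEF1A2 (ENSG00000101210, chr20:63488014-63499083) had FPKM 807, 905 and 874 in the libraries labelled shNAT10, against 304, 276 and 509 in shNC. Every library labelled shNAT10 was above every shNC library. The log2 difference was 1.30 (SE 0.61, 95% interval 0.09 to 2.5), but it did not pass adjustment over all genes (limma adjusted p = 0.754, unadjusted p = 0.0348). An exact two-sided permutation test gave p = 0.1, the smallest that 3 against 3 allows. The difference was 1.02 on the TPM scale and 0.96 after quantile normalization. Without shNAT10 replicates 2 and 3 it was 1.20. The summed FPKM of fibroblast and muscle markers was also higher in the libraries labelled shNAT10, as given above. A different gene led that sum in each: TAGLN in replicate 1, ACTA2 in replicate 2 and DCN in replicate 3. Not every marker ran that way, as ACTA2 overlapped and COL3A1 was above 0 only in shNC replicate 1, at 0.13. The part of these markers in the EEF1A2 level was not tested. In bulk RNA, a different share of cells and a different amount of RNA per cell cannot be told apart.

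EEF1A1 (ENSG00000156508, chr6:73515750-73521032) had FPKM 335, 137 and 547 in the libraries labelled shNAT10 and 421, 284 and 397 in shNC. Its groups overlapped, with a log2 difference of -0.30 (SE 0.75, limma adjusted p = 0.901), and without shNAT10 replicate 2 the difference was 0.24. The ratio of EEF1A2 to EEF1A1, in FPKM, was 2.41, 6.60 and 1.60 in the libraries labelled shNAT10 and 0.723, 0.974 and 1.28 in shNC. In recovered fragments, which are not scaled for length, that ratio was 0.814, 2.23 and 0.539, against 0.244, 0.328 and 0.432. All 3 libraries labelled shNAT10 lay above the 3 shNC libraries, and the scales differ only by the ratio of the gene lengths. The recovered lengths were 5948 for EEF1A1 and 2006 for EEF1A2. In shNAT10 replicates 1 and 3 and in shNC replicate 3, which gene of the pair was higher depended on the scale.

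Reads of EEF1A1 can be shared with its processed pseudogenes. EEF1A1P5, a near copy, was at FPKM 21.8, 358 and 25.2 in the libraries labelled shNAT10 and at 29.6, 33.5 and 27.9 in shNC. The library where EEF1A1 was lowest, shNAT10 replicate 2, was the library where EEF1A1P5 was highest, so the level of EEF1A1 is uncertain there.

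**Figure D2:**
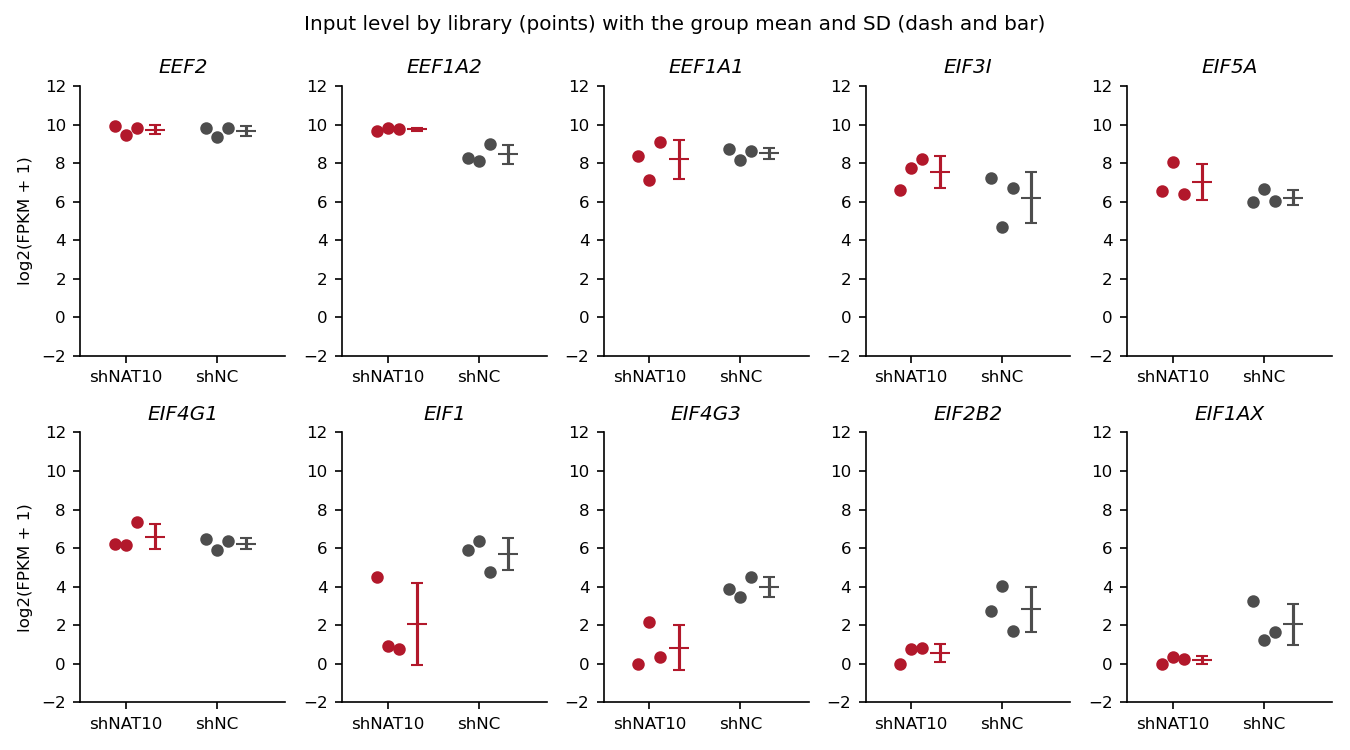
Level in each input library, as log2(FPKM + 1), of the 6 most abundant genes and of 4 initiation factor genes that did not overlap between hairpins. Each panel has 3 points for shNAT10 on the left and 3 for shNC on the right, with the mean and SD of each group beside them. EEF1A2 lies higher in shNAT10, EIF1, EIF4G3, EIF2B2 and EIF1AX lie lower, and the other 5 overlap.

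The eEF1B complex, which exchanges GDP for GTP on eEF1A, was represented by EEF1B2 and EEF1D. EEF1B2, the catalytic subunit, had FPKM 0.752, 75.6 and 79.3 in the libraries labelled shNAT10, against 67.5, 90.1 and 219 in shNC. Its log2 difference of -2.33 (SE 1.34, limma adjusted p = 0.754) rested largely on replicate 1, and without that library it was -0.50. EEF1D was at 16.1, 19.8 and 22.9, against 49.5, 23.9 and 6.87, where the shNC values enclosed all others.

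Enzymes acting on elongation factors were scarce. EEF2KMT, which methylates eEF2, reached FPKM 25.4 in shNAT10 replicate 3 and at most 0.661 in the other libraries. EEF2K, the kinase that inhibits eEF2, stood at 2.42, 0.166 and 0 in the libraries labelled shNAT10 and at 0.0737, 0 and 2.47 in shNC. EEF1AKMT3, a methyltransferase of eEF1A, was at 0, 2.52 and 0, against 2.52, 0 and 0. Each of these rested on a few libraries of 6.

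Of the 5 eIF1 and eIF1A genes 3 were tested, and none passed. EIF1 and EIF1AX had lower values in every library labelled shNAT10 than in any shNC library. Among all tested genes 9.61% did not overlap, in either direction. EIF1 (ENSG00000173812, chr17:41688885-41692668), which guards the choice of start codon, had FPKM 21.7, 0.921 and 0.691, against 58.8, 82.5 and 26.6 in shNC. These came from 109, 5 and 3 recovered fragments in the libraries labelled shNAT10 and 721, 982 and 330 in shNC, and the groups did not overlap. The log2 difference was -3.62 (SE 1.68, 95% interval -6.94 to -0.31), which did not pass after adjustment (limma p = 0.0324 unadjusted, adjusted p = 0.754; exact permutation p = 0.1). Without shNAT10 replicates 2 and 3, the libraries in which NAT10 went against its label, it was -1.19, and without replicate 1 it was -4.84.

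EIF1AX, the X-linked eIF1A gene, had FPKM 0, 0.302 and 0.189 in the libraries labelled shNAT10 and 8.48, 1.38 and 2.18 in shNC. Its difference of -1.84 (SE 1.64, limma adjusted p = 0.754) compares groups that did not overlap but rests on 0, 2 and 1 fragments against 127, 20 and 33. It was -0.93 after quantile normalization and -5.11 with a pseudocount of 0.01. EIF1B, a paralog of EIF1, was at FPKM 45.5 in shNC replicate 2 and at 0 in the other 5 libraries. EIF1AY, the Y-linked copy of eIF1A, was counted and its level is not given.

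The subunits of eIF2 showed no common pattern. EIF2S3, the gamma subunit that binds GTP and the initiator tRNA, ranged most, at FPKM 163, 11.7 and 0.240 in the libraries labelled shNAT10 and 28.7, 56.8 and 63.6 in shNC. EIF2S2, the beta subunit, was at 0, 3.02 and 3.77, against 0.445, 4.24 and 42.1. EIF2D, a separate factor able to deliver tRNA to the ribosome, was at 3.93, 35.3 and 14.4, against 1.69, 17.3 and 1.81. In all 3 the groups overlapped.

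eIF2B reloads eIF2 with GTP and is the point at which the integrated stress response acts. EIF2B2, its beta subunit, had FPKM 0, 0.735 and 0.766 in the libraries labelled shNAT10, against 5.64, 15.5 and 2.30 in shNC, with no overlap and a log2 difference of -2.30 (SE 1.85, limma adjusted p = 0.754). It was -1.26 after quantile normalization and -5.03 with a pseudocount of 0.01. EIF2B5, the catalytic subunit, was at 59.9, 0 and 0, against 0.0518, 0.587 and 0.0512. EIF2B1 was at 0 in all 3 libraries labelled shNAT10 and at 0, 13.8 and 26.6 in shNC. The summed level of the 5 eIF2B genes overlapped, at 64.4, 4.19 and 0.766 against 8.74, 31.0 and 29.0.

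eIF3 was the largest group, with 14 genes, of which 13 were tested. In 11 of the 13 the difference was below 0 and in 2 above 0, with a median of -1.27. Over all tested genes 58.8% were below 0, with a median of -0.49. The summed FPKM of the eIF3 genes overlapped, at 421, 335 and 495 in the libraries labelled shNAT10 and 542, 439 and 465 in shNC. EIF3I, the most abundant of them by mean FPKM, had FPKM 95.5, 216 and 294, against 148, 25.1 and 103 (log2 difference 1.31, SE 1.05, limma adjusted p = 0.754). It made up most of the eIF3 sum only in shNAT10 replicates 2 and 3. Without shNC replicate 2 the EIF3I difference was 0.56. EIF3A, the scaffold subunit, was nearly level between the hairpins, at 26.7, 44.7 and 61.8, against 26.8, 54.9 and 61.4.

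EIF3D, the cap-binding subunit of eIF3, was at FPKM 144, 6.23 and 7.18 in the libraries labelled shNAT10 and 87.4, 100 and 36.1 in shNC. EIF3E, another eIF3 subunit, was at 49.0, 1.56 and 0.278, against 38.3, 65.4 and 43.4, with a log2 difference of -3.16 (SE 1.66, limma adjusted p = 0.754). In both genes shNAT10 replicates 2 and 3 were low and replicate 1 was not, and without replicates 2 and 3 the difference of EIF3E was 0.04. EIF3L was at 8.71, 15.2 and 57.9, against 68.5, 48.0 and 92.8, which overlap between 48.0 and 57.9. EIF3C and EIF3CL are near-identical copies whose reads may be split between them, and EIF3C was at 1.03, 0.382 and 1.08, against 0.127, 9.20 and 20.1.

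The helicase eIF4A has a pair of closely related genes and a more distant relative, EIF4A3, of the exon junction complex. EIF4A2 was above 0 throughout, at FPKM 55.3, 29.7 and 100 in the libraries labelled shNAT10 and 16.1, 22.3 and 38.8 in shNC (log2 difference 1.16, SE 1.41, limma adjusted p = 0.754). Without shNAT10 replicate 3 the EIF4A2 difference was 0.73. EIF4A1 was listed above 0 in only 1 library of each group, at 16.3 in shNAT10 replicate 3 and 29.5 in shNC replicate 3. EIF4A3 was at 17.7, 24.6 and 27.9, against 49.4, 56.5 and 0.118. A readthrough gene that spans EIF4A1, SENP3-EIF4A1, was listed at 0 in all 6 libraries, so no level was assigned to it.

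EIF4E, the cap-binding protein itself, was low, at FPKM 0, 0 and 11.9 in the libraries labelled shNAT10 and 0.315, 3.98 and 0 in shNC. EIF4E2, a relative that represses translation with GIGYF2, was the most abundant of that group, at 7.22, 33.4 and 0.814, against 50.5, 29.7 and 17.0. EIF4ENIF1, which carries eIF4E into the nucleus, was at 0, 0 and 0.960, against 13.4, 0 and 12.3. Within each of these genes the groups overlapped.

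The eIF4G scaffolds differed among themselves. EIF4G1, the main scaffold, was present in every library, at FPKM 74.6, 71.7 and 163 in the libraries labelled shNAT10 and 87.0, 58.4 and 81.9 in shNC (log2 difference 0.35, SE 1.14, 95% interval -1.90 to 2.60, limma adjusted p = 0.927). EIF4G3, its paralog, had FPKM 0, 3.48 and 0.261, against 14.0, 10.2 and 21.8, with no overlap and a difference of -3.13 (SE 1.86, 95% interval -6.80 to 0.53, limma adjusted p = 0.754), or -6.11 with a pseudocount of 0.01. EIF4G2, which lacks the part that binds eIF4E, was at 73.4, 6.94 and 8.39, against 41.3, 91.8 and 64.9 (difference -1.85, SE 1.45, limma adjusted p = 0.754). Without shNAT10 replicates 2 and 3 the EIF4G2 difference was 0.22. EIF4B, a partner of eIF4A, overlapped at 52.6, 54.6 and 9.51, against 24.3, 52.4 and 139, and so did EIF4H, at 0.226, 3.76 and 80.6, against 59.1, 0.477 and 16.0.

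The remaining factors act late in initiation or on the elongating ribosome. EIF5A, which helps the ribosome past difficult stretches and carries hypusine, had FPKM 93.6, 268 and 82.1 in the libraries labelled shNAT10 and 62.0, 99.6 and 63.9 in shNC (log2 difference 0.79, SE 1.10, limma adjusted p = 0.788). Without shNAT10 replicate 2 the EIF5A difference was 0.25. EIF6, which keeps the subunits apart, was at 135, 1.63 and 0.510, against 11.0, 0.744 and 1.60. EIF5B, the GTPase of subunit joining, was at 1.37, 0.0847 and 102, against 7.27, 10.9 and 0.148. The summed level of eIF5, eIF5A, eIF5B and eIF6 genes was 253, 269 and 187 in the libraries labelled shNAT10 and 84.4, 112 and 78.8 in shNC, which did not overlap. Among the libraries labelled shNAT10 the largest contributor was EIF6 in replicate 1, EIF5A in replicate 2 and EIF5B in replicate 3, so different genes made up the sum in different replicates.

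**Figure D3:**
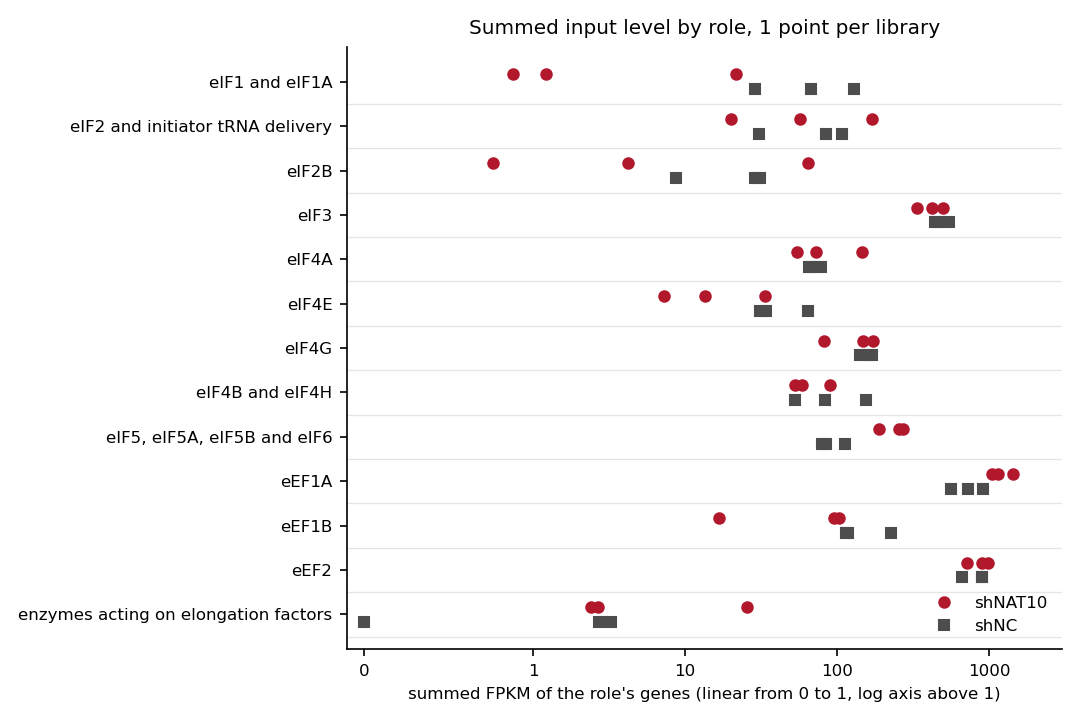
Summed FPKM of the genes of each role in each input library, without EIF1AY, with 3 circles for shNAT10 above 3 squares for shNC in each row. The axis is linear up to 1 and logarithmic beyond. Sums for eIF1 and eIF1A and for eEF1B lie lower in shNAT10 without overlap, sums for eEF1A and for the eIF5 to eIF6 row lie higher without overlap, and the other 9 rows overlap.

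Sums by role are given as a description, without a test. Summed FPKM over all genes was itself higher without overlap, at 578000, 557000 and 712000 in the libraries labelled shNAT10 and 518000, 533000 and 469000 in shNC, and over other protein-coding genes it was 212000, 188000 and 224000, against 183000, 183000 and 181000. Roles whose sums did not overlap were eIF1 and eIF1A (21.7, 1.22 and 0.880 in the libraries labelled shNAT10, against 67.3, 129 and 29.0 in shNC), eEF1B (16.8, 95.4 and 102, against 117, 114 and 226), the eIF5 to eIF6 row above, and eEF1A (1140, 1040 and 1420, against 725, 560 and 906). All initiation factor genes together without EIF1AY summed to 1210, 895 and 1120, against 1090, 1120 and 1130. All elongation factor genes and their enzymes summed to 2140, 1850 and 2440, against 1740, 1330 and 2030.

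Across all 61 genes, 0 of the 45 tested passed the limma test at an adjusted p under 0.05, where 0.190% of all 10517 tested genes passed. Of the 8095 other tested protein-coding genes 0 passed, so no gene that passed was protein-coding. The unadjusted limma p was under 0.05 in 2 of 45 (4.44%, EIF1 and EEF1A2), against 3.70% of all tested genes. Voom on recovered fragments gave 0 of 45 by the adjusted and 0 by the unadjusted p, where 0.0380% and 0.837% of all genes passed. Groups did not overlap in 5 of 45 (11.1%), EIF1, EIF4G3, EIF2B2 and EIF1AX lower and EEF1A2 higher in the libraries labelled shNAT10, against 9.61% of all tested genes. The sign was negative in 30 of 45 (66.7%), against 58.8% of all. The median log2 difference was -0.55 for these genes and -0.49 for all tested genes. Each of these shares was close to that of all genes. Among the 8095 other protein-coding genes, the unadjusted limma p was under 0.05 in 176 and groups did not overlap in 824. The sign was negative in 4781 of them, with a median of -0.47. The 4.44% at an unadjusted limma p under 0.05 rests on 2 genes.

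The same fit without shNAT10 replicates 2 and 3, the libraries whose NAT10 level went against the label, left replicate 1 against 3 shNC libraries, with the lone library assumed to vary like shNC. It also called 0 of the factor genes. The differences of EIF4G3, EIF2B2 and EIF1AX were then -3.96, -2.83 and -2.05, and those of EIF4A2, EIF3I and EIF5A were 1.16, 0.38 and 0.35. EEF2 was at 0.28, EEF1A1 at -0.11 and EIF4G1 at -0.0014. EEF1B2 was at -5.99, the lowest of the 14 genes with a printed difference (limma adjusted p = 0.13).

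**Figure D4:**
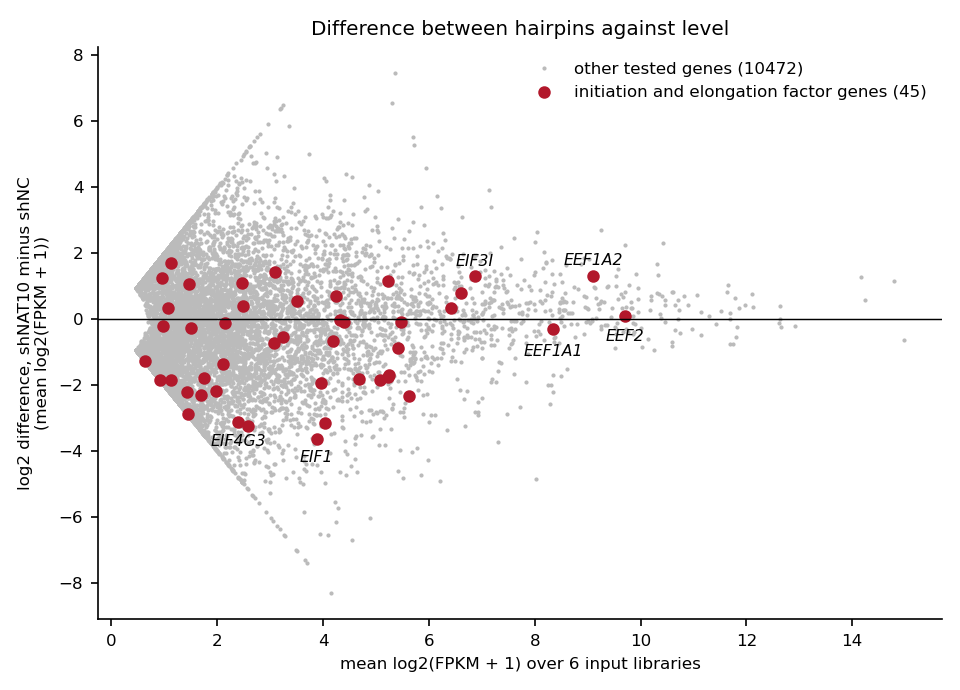
Difference in mean log2(FPKM + 1), shNAT10 minus shNC, against the mean log2(FPKM + 1) over the 6 input libraries, for the 45 tested factor genes (large points) and the other tested genes (small points). The factor genes lie within the cloud of other genes of the same level, with wide scatter at low levels and EEF2 near 0.

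The spread between replicates sets how far these comparisons reach. Among genes of this set with at least 100 recovered fragments in a library, 3 of 30 (10.0%) were at 0 in another replicate of the libraries labelled shNAT10, and 6 of 40 (15.0%) in shNC. Among other protein-coding genes those shares were 49.0% (1946 of 3975) and 43.7% (2669 of 6112). These shares were not matched for level, so they do not compare factor genes with others of like abundance. The SD within groups, set beside other coding genes of the same level, was close to theirs at both ends of the range and smaller between. For a mean FPKM of 100 or more its median was 0.71 on the log2 scale over 5 factor genes and 0.68 over 218 others, and for 1 to 10 it was 1.59 over 17 and 1.62 over 5149. Between 10 and 30 it was 2.05 over 12 and 2.29 over 2039, and between 30 and 100 it was 1.33 over 11 and 1.96 over 689. The 3 lowest spreads belonged to EEF2, EEF1A2 (0.34) and EIF4G1 (0.51) and the highest to EIF4H (2.91).

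Genes that act on these factors were listed separately, and 0 passed the limma test. For comparison, 58.8% of all tested genes were lower, with a median difference of -0.49. The eIF2 kinases and eIF4E-binding proteins had 5 of 7 genes tested, 3 higher and 2 lower, with a median difference of 0.68. EIF2AK1, the heme-regulated eIF2 kinase, had FPKM 122, 58.4 and 143 in the libraries labelled shNAT10, against 77.5, 32.5 and 96.5 in shNC. EIF4EBP1, which sequesters eIF4E when mTOR is off, was at 308, 156 and 0, against 55.1, 1.13 and 1.90, and EIF4EBP2 at 46.9, 3.95 and 70.9, against 0, 17.9 and 40.6.

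Termination, recycling and poly(A)-binding genes had 11 of 13 tested, 3 higher and 8 lower, with a median of -0.67. PABPC1, the main poly(A)-binding protein of the cytoplasm, had FPKM 137, 99.2 and 119 in the libraries labelled shNAT10 and 161, 148 and 233 in shNC. These did not overlap, but the difference did not pass (limma adjusted p = 0.826). PAIP2, which displaces PABPC1 from the mRNA, was at 210 in shNAT10 replicate 2 and at most 20.3 elsewhere, and GSPT1, the release factor eRF3a, was at 49.9, 17.6 and 0.729, against 45.5, 14.9 and 19.8.

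Regulators of the factors had 13 of 16 genes tested, 7 higher and 6 lower, with a median of 0.27. PDCD4, an inhibitor of eIF4A, was at FPKM 58.2, 8.81 and 1.47 in the libraries labelled shNAT10 and 19.2, 14.5 and 1.60 in shNC. LARP1, which binds TOP mRNAs, was at 33.6, 22.6 and 10.8, against 14.0, 0.609 and 26.5, and MKNK2, a kinase of eIF4E, at 21.1, 52.7 and 5.60, against 13.8, 6.24 and 15.6. A list of 10 mRNAs among the 61 that are known to carry a TOP element had 9 tested, 1 higher and 8 lower, with a median of -0.30. By the sequence at the start instead, the 10 tested genes with a pyrimidine start had a median of -0.79 and the 26 with another start one of -0.41. None of these medians was tested. Over all tested genes 58.8% were lower, with a median of -0.49.

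The authors' deposited table of differential ac4C peaks held 15 peaks in 12 of the 61 genes. Among tested genes, 11 of 45 (24.4%) had a peak, against 19.0% of all 8140 tested protein-coding genes. The table does not state which hairpin is the numerator of its log2 change, so signs are given without a direction between hairpins. Of the 15 peaks, 8 had a negative and 7 a positive log2 change (53.3% negative, against 61.7% of all 2364 peaks in the authors' deposited table). All 15 lay within the span of their own gene in GRCh38. The authors' deposited table classed 8 as exon, 5 as coding sequence and 2 as 3′ untranslated region, and over the whole table exon made up 15.4% of peaks and coding sequence 59.5%.

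EIF4G2 had 3 peaks with opposite signs in the authors' deposited table. The peak nearest the start of the gene, chr11:10803124-10803571, had a log2 change of 9.62, the middle peak, chr11:10801698-10801878, one of -4.98, and the peak at chr11:10799049-10799298 one of 8.46. All 3 were classed as exon. EIF2B4 had 2 peaks of the same sign in the authors' deposited table, at chr2:27366795-27367242 (-4.79) and chr2:27368376-27368614 (-3.80), although its input FPKM was only 4.45, 0.125 and 0 in the libraries labelled shNAT10 and 3.04, 1.08 and 0.109 in shNC.

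Of the 15 peaks, the largest positive change in the authors' deposited table was in EIF4A2, at chr3:186786221-186786400, with a log2 change of 9.81 and a fold enrichment of 76.5. That peak overlapped 78 bases of the small nucleolar RNA gene SNORA63B (chr3:186786323-186786447), so its signal may belong to either RNA. EIF3B had the highest fold of the 15, 239 in the authors' deposited table, in a peak of 151 bases near the end of the gene (chr7:2380295-2380445) with a log2 change of 6.42. Its input FPKM was 6.48, 11.6 and 26.2 in the libraries labelled shNAT10 and 17.0, 13.5 and 2.14 in shNC. The median fold of the 15 peaks was 8.58, against 10.5 for the whole table.

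Positive changes were also listed in the authors' deposited table for EIF2D (9.20, chr1:206595747-206597188) and EIF5B (5.45, chr2:99363843-99371679, over 6 blocks). EEF1AKMT2, a methyltransferase of eEF1A, had a positive change of 5.17 in the authors' deposited table (chr10:124762524-124765537). Its input FPKM was 0, 0 and 0.198 in the libraries labelled shNAT10 and 0, 0 and 0.0691 in shNC, or 1 fragment in each of the 2 libraries above 0.

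The other negative changes in the authors' deposited table were -5.69 in EIF4A1 (chr17:7578677-7578856, 3′ untranslated region) and -4.61 in EIF4H (chr7:74190260-74195282). They were -4.25 in EEF1B2 (chr2:206162515-206162808), -3.42 in EIF2S3 (chrX:24054985-24057717) and -3.34 in EIF3D (chr22:36523959-36525774) in the authors' deposited table. Those of EIF4H, EEF1B2, EIF2S3 and EIF3D were classed as coding sequence. No peak was listed for EEF2, EEF1A1, EEF1A2 or EIF1.

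A column of the authors' deposited table counts CXX repeats, a motif linked to NAT10 sites, in each peak. At least 1 such site was counted in 8 of the 15 peaks (53.3%), with 3 in EIF4H and 2 in EIF5B, against 62.6% of all peaks. These shares are given without a test.

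**Figure D5:**
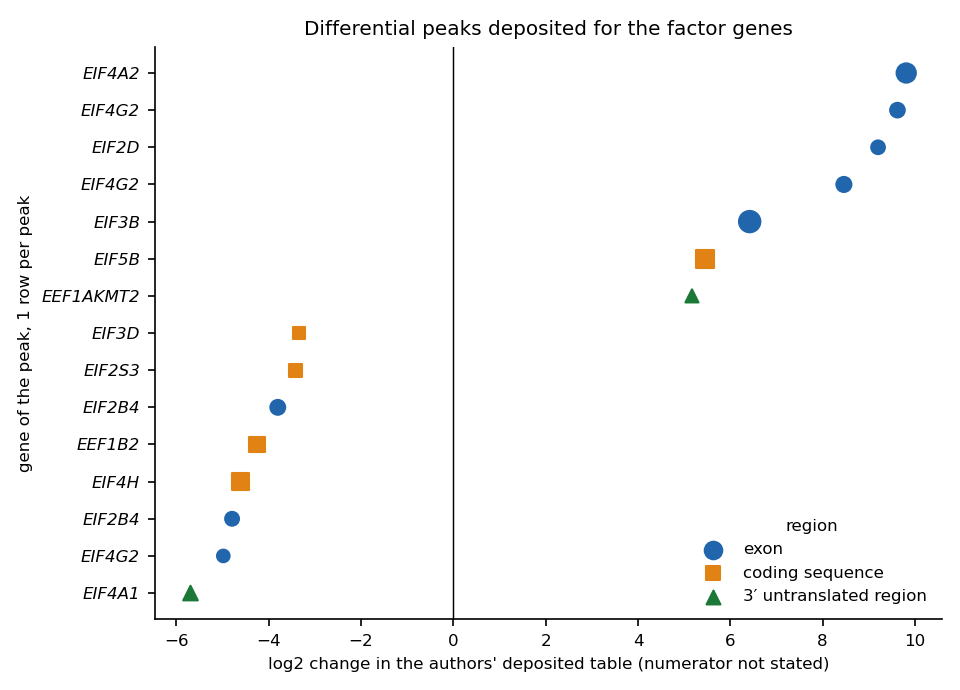
Log2 change of each of the 15 peaks in the authors' deposited table, 1 row per peak, with marker shape and colour for the annotated region and marker area growing with the logarithm of the peak's fold enrichment. Peaks run from -5.69 in EIF4A1 to 9.81 in EIF4A2, and EIF4G2 appears on both sides of 0.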

How the data were processed

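Gene levels were read from a table in FPKM that the authors deposited, with columns for the 6 input libraries. Columns titled NC were matched to shNC, and the columns titled sh were taken as shNAT10 by elimination. Per the submitters' processing notes, cutadapt 2.5, HISAT2 2.1.0 and HOMER 4.10.4 were used with GRCh38 and GRCm38, with no role given for each. The peak caller, the annotation and the program that counted reads are not given in the sources used here. Peaks came from the authors' deposited table, which per the file headers gives a fold enrichment (a ratio), a log2 change, logarithmic scores of the p-value and FDR, and a count of CXX sites per peak. Whether replicates were pooled for that table is not stated.

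The log2(FPKM + 1) values entered limma 3.58.1 (R 4.3.3, eBayes with trend). The fit held the 10517 genes whose mean FPKM reached 1, and p-values were adjusted over all of them by the Benjamini-Hochberg method. The pseudocount of 1 understates differences of low genes. The 212.6 prior degrees of freedom mean that each SE rests mostly on genes of like level. The fit was tested on simulated data. Those data held only genes above 0 in every library, with a replicate spread below the real median at every level. The simulation therefore does not show how the fit performs at the real spread. Whole fragments were recovered from the steps between FPKM values: 15010 of 15014 genes came out whole within 0.001 fragments, which says little because each length was fitted to give whole numbers. A test on simulated data returned 91.9% of 3000 exactly. They are the smallest whole numbers that the values allow and serve for depth and for voom. PCR copies were not marked, so fragments are not independent molecules.

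The rule for the genes uses names only, but the set and the lists were chosen with earlier results of these data known. Named were NAT10, the 3 most abundant genes of each role, genes past the test, up to 5 per direction without overlap, genes with a peak, and the 3 most abundant of each related list. Fitted differences are printed for 14 of the 61 genes. Starts came from RefSeq (GRCh38.p14), matched by symbol. Alternatives covered the pseudocount, the filter, scaling, robust variance, the replicate block and leaving out libraries, and voom was added after seeing the data.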

Additional observations from a re-analysis of the deposited data

How the results depend on the processing

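By limma and voom 0 factor genes passed under each of 17 alternatives, with 0 to 6 at an unadjusted p under 0.05. Over all genes, 20 passed, against 7 with a pseudocount of 0.01, 0 with no filter on low values (340 at an unadjusted limma p under 0.05), 10 with a mean FPKM of at least 5, 0 without shNAT10 replicates 2 and 3 (1139 unadjusted), 4 with voom, and 1 to 34 with a replicate left out (1 without any of the 3 shNC replicates, 12, 34 and 23 without shNAT10 replicate 1, 2 or 3). The median difference of the factor genes, -0.55, was -0.81 and -0.90 with pseudocounts of 0.1 and 0.01, -0.11 with no filter, -0.28 after quantile normalization, -0.33 without shNAT10 replicates 2 and 3, -1.0 with voom, and -0.74 to -0.20 with a replicate left out. Minus the median of all genes it was -0.07, and it was 0.18 for TPM, -0.20 for quantile-normalized values and 0.03 for scaling by median ratios, so its sign against other genes depends on the scaling. NAT10 was -0.23 with a pseudocount of 0.01, -1.81 without shNAT10 replicates 2 and 3, and 0.62 to 3.13 with a replicate left out. EEF2 was -0.19 on the TPM scale, -0.28 after quantile normalization, -0.12 with voom, and -0.07 to 0.21 with a replicate left out (-0.02 and -0.07 without shNAT10 replicate 1 and shNC replicate 2). With a replicate left out EEF1A1 was -0.75 to 0.24 (0.24 without shNAT10 replicate 2). EIF4G1 was -0.03 to 0.56 with a replicate left out (-0.03 without shNAT10 replicate 3) and -0.0014 without replicates 2 and 3, where EIF3E was 0.04 and EIF4G2 0.22. The cause of these moves was not tested. Leaving out both replicates left 1 library, assumed to vary like shNC. Peaks in these genes numbered 15 under stricter limits on FDR or change, and 20 when counted by RefSeq span without strand. Libraries of the same replicate number showed no shared deviation from their group means, with correlations of 0, -0.02 and 0.01. With so wide a spread, these values cannot show whether such libraries were made together, which the labels do not say. With a replicate block 0 factor genes and 21 genes passed, and no call on a factor gene differed. The 3 libraries per group limit the precision of every gene, and genes with few fragments, such as EIF1AX, have differences that move with the pseudocount.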

Other observations

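Several of these genes host small nucleolar RNAs, which guide the modification of other RNAs, inside their span. RefSeq placed at least 1 such RNA gene within 8 of the 61 genes (13.1%), against 493 of 18420 other protein-coding genes (2.68%), without regard to strand. The hosts were EEF1B2, EEF2, EIF3A, EIF4A1, EIF4A2, EIF4G1, EIF4G2 and EIF5, with 16 small nucleolar RNA genes in all. The gene table gave a single row by symbol for 4 of the 16, and 1 of the 4 was above 0, SNORA28 within EIF5. SNORA28 had FPKM 0, 10.6 and 26.5 in the libraries labelled shNAT10 and 0 in all 3 shNC libraries. The groups overlapped at 0, and the difference did not pass (2.77, SE 1.78, limma adjusted p = 0.754). SNORA28 is 126 bases long, so these FPKM values rest on few fragments. Its host EIF5 was at 22.8, 0 and 2.26 in the libraries labelled shNAT10 and 4.07, 0.358 and 13.1 in shNC.

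Pseudogenes named after the 61 genes filled 136 rows of the table, of which 18 were above 0 in at least 1 library and 2 had a mean FPKM of at least 1. The pair was EEF1A1P5, described above, and EEF1A1P6, at FPKM 1.04, 1.45 and 0.603 in the libraries labelled shNAT10 and 0.641, 1.32 and 2.53 in shNC.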
